A study of Mus musculus with 8 samples.

Results

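The transcriptome of the normal mouse lens at embryonic day 14.5 (E14.5) was described from the 4 libraries labelled control (replicates a to d), out of 8 libraries in the series. They were chosen by genotype label alone, and the 4 other libraries, labelled Mettl3 CKO, were not used, so that no genotype was compared. TRIzol was used for extraction, and polyadenylated lens RNA entered an NEBNext Ultra RNA library preparation. Neither a strain, a Cre driver nor a floxed allele of the control embryos is labelled, and the number of lenses or animals behind a library is not stated. Replicates a and b are titled Control and replicates c and d Ctrl, and the sample records of c and d are numbered apart from those of a and b. No label says that the titles or the numbering mark a batch. Mettl3, the RNA methyltransferase gene that the series is about, was present in every control library, with 744, 577, 977 and 1136 counts in a to d and a level of 11.1 ± 1.997 TPM (SD, n = 4).

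The lens is a closed ball of 2 cell states wrapped in a basement membrane, the capsule. A sheet of epithelial cells lies at the front and divides, and cells that leave the cycle at its equator elongate into fiber cells, which fill themselves with crystallins, join through gap junctions and later lose their organelles. Pax6, Foxe3, Sox, Maf, Prox1, Pitx3 and Hsf4 are transcription factors known for their roles in making and keeping this tissue, and FGF, BMP, Wnt and Notch signals act on the choice between epithelium and fiber.

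The libraries held 25662135, 24374038, 45310168 and 56098211 gene counts in a to d, and a gene with 0 counts over the 4 libraries was below 0.0198 CPM (counts scaled to a common library total) by counting error alone. Levels below are in TPM, the share of transcripts after correction for the length of a gene's exons, and shares of counts carry no such correction. An expressed gene had a mean of at least 1 TPM and at least 10 counts in every library, and a silent gene was under 0.1 TPM in every library. The libraries differed in 2 ways that touch the results. Values of GC-rich genes were lower in c, and less so in d, than in a and b, a split that follows the titles Control and Ctrl. Libraries a and c held more transcripts of muscle, keratinocyte and blood genes than b and d, with retinal and neuronal genes higher in a. Because the tissue was sequenced in bulk, more cells of a type and more RNA per cell cannot be told apart.

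Crystallins were the main product of the E14.5 lens. The 16 crystallin genes took 25.1%, 28.7%, 28.6% and 26.3% of all counts in a to d (mean 27.2% ± 1.78, SD, n = 4). The counting error of any of these class shares was at most 0.0180 percentage points (half-width of the Wilson 95% interval), far below the spread between libraries. Per length they made up 48.9% ± 1.86 of TPM, divided into 10.6% ± 0.639 for the alpha, 21.5% ± 0.756 for the beta and 16.8% ± 0.987 for the gamma crystallins. The 12 protein-coding genes with the highest mean TPM were all crystallins. Leaving out libraries a and c gave a crystallin share of 27.5% of counts.

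The alpha crystallins, small heat shock proteins that act as chaperones, were unequal. Cryaa, the most abundant transcript of the lens, stood at 94254, 104166, 108822 and 106295 TPM in a to d (103384 ± 6377, SD, n = 4). Its single gene took 9.06% ± 0.760 of all counts. Cryab stood at 2566, 2435, 2367 and 3025 TPM, so that Cryaa exceeded it 35.1- to 46.0-fold within each library (mean ratio 40.2 ± 5.09).

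The beta crystallins, structural proteins that assemble into oligomers, were the most uneven class. Cryba1 stood at 62319.7, 60922, 80236 and 63587 TPM in a to d, and Crybb1 at 74858, 79726, 36992 and 72041 TPM. Crybb1 was thus above Cryba1 in a, b and d and below it in c, where the ratio was 0.461. Library c also gave the lowest value of the GC-rich Crybb1 (61.8% GC) and the highest of the GC-poor Cryba1 (42.7% GC). Other GC-rich members went otherwise. Cryba4 (58.4% GC) was highest in c, at 40475 TPM against 29016 to 31901 TPM in the others, and Cryba2 (58.5% GC) was lowest in d. The part of base composition in the order of Crybb1 and Cryba1 was not tested. Crybb3 (34529 ± 3155 TPM), Cryba4 (33152 ± 5035 TPM) and Cryba2 (14976 ± 757 TPM) followed. Crybb2, known as a major crystallin of the postnatal lens, stood at 8.93, 6.33, 6.20 and 7.399 TPM, which placed it at rank 7634 among protein-coding genes.

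The gamma crystallins, compact monomers of the fiber cell, were more even. Cryge had a mean of 48246 ± 3832 TPM, Crygd of 31779 ± 4251, Crygf of 29107 ± 1511 and Crygb of 25950.4 ± 3780.3 TPM (SD, n = 4). Crygc (12291 ± 1722 TPM), Cryga (11646 ± 1789 TPM) and Crygn (8175 ± 1194 TPM) were lower. Crygs, which in the mouse is known to rise after birth, was at 784, 631, 776 and 732 TPM in a to d. Transcripts of the 6 clustered genes Cryga to Crygf were 76.2% to 94.1% identical in pairs, with Cryge and Crygf the closest, so the authors' counting can have divided reads between them and their separate values are uncertain. Along the order of the 16 means, the ranges over the libraries overlapped for 8 of the 15 neighbouring pairs. The steps without overlap were Cryaa over Cryba1, Cryge over Crybb3, Crygb over Cryba2, Cryga over Crygn, and each step from Crygn down to Crybb2. This order is in TPM and depends on the exon length used. In CPM Crybb3 (mean 34021.5, 2333 bases) stood above Cryge (14733.6, 723 bases). For Crygd 1028 bases were used, while its longest protein-coding transcript has 613.

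**Figure D1:**
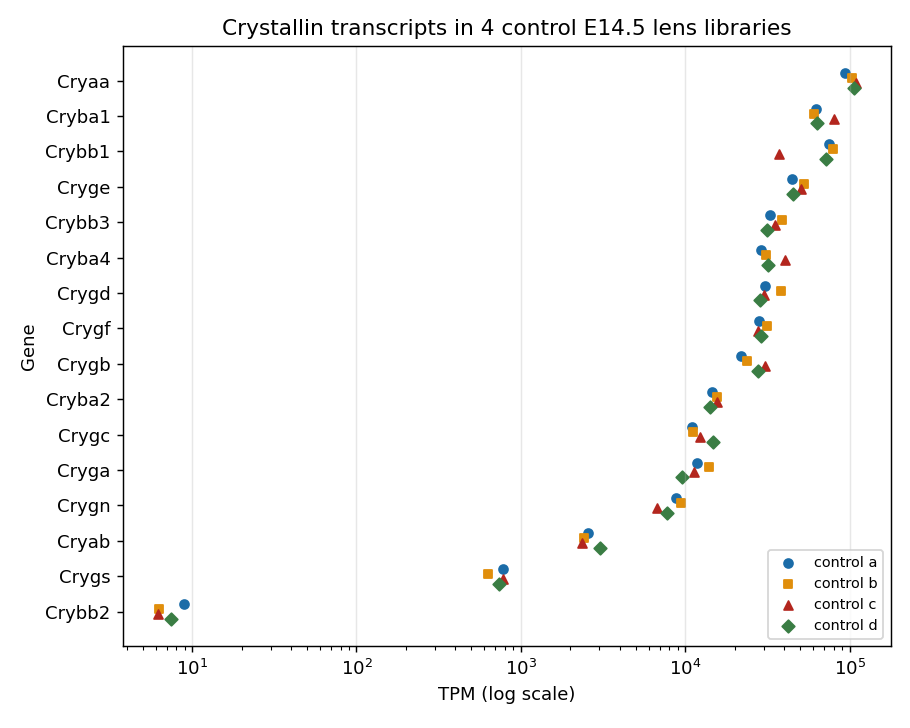
TPM of each of the 16 crystallin genes (rows, ordered by mean) in the 4 control libraries, 1 symbol per library, on a log axis. The 15 genes from Cryaa to Crygs lie at or above 631 TPM in every library and Crybb2 lies at or below 8.93 TPM, and library c departs from the others at Crybb1.

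The start regions of these genes are shown because letters that few promoters hold stood in most, though not all, crystallin promoters. Sequences are RefSeq promoter entries on build GRCm38.p6, 5′ to 3′ on the gene's own strand, and 15 of the 16 crystallins had an entry (all but Cryab). A TATA motif was TATAAA on either strand or TATATA, which reads the same on both, within 60 bases upstream of the RefSeq start, and the letters of a Maf half-site were TGCTGA on either strand within 250 bases. The TATA forms can overlap each other and TGCTGA overlaps neither. In the lines below the capitals mark these letters (TCAGCA is TGCTGA on the other strand). Crybb3 and Cryba4 are shown as abundant genes without the TATA letters, and Crybb2 as the rare member. The stretches run from -90 to -11 relative to the RefSeq start (to -21 for Crygd and Cryga, and from -50 to -21 for Cryaa), so letters farther upstream are not in view.
Cryaa (chr17:31677881-31677910, plus strand): ttcctccattctgtgcaggcaTATATAggg
Cryba1 (chr11:77725304-77725383, minus strand): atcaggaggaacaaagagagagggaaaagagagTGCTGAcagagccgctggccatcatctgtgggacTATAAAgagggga
Crybb1 (chr5:112255730-112255809, plus strand): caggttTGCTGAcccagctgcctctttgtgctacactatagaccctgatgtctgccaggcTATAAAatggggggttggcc
Cryge (chr1:65051174-65051253, minus strand): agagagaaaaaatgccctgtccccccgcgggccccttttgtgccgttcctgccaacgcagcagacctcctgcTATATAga
Crybb3 (chr5:113081595-113081674, minus strand): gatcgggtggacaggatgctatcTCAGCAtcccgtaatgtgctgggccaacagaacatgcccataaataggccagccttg
Cryba4 (chr5:112252529-112252608, minus strand): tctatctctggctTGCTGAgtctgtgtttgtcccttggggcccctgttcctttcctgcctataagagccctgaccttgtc
Crygf (chr1:65926432-65926511, plus strand): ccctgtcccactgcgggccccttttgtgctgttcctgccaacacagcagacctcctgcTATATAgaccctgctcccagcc
Crygd (chr1:65063461-65063530, minus strand): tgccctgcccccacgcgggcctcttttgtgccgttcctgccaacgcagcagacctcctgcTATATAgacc
Crygb (chr1:65082301-65082380, minus strand): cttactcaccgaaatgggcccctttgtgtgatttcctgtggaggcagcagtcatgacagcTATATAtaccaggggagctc
Cryga (chr1:65103384-65103453, minus strand): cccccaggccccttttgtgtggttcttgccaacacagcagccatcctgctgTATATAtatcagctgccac
Crybb2 (chr5:113070128-113070207, minus strand): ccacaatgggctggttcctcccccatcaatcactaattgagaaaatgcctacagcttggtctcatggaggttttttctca

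The TATA motif was found in 11 of the 15 crystallin promoters (73.3%) and in 952 of 16313 promoters of protein-coding genes (5.84%). TGCTGA was found in 10 of 15 (66.7%) and in 14.6% of all promoters. The TATA letters were not in the windows of Crybb3, Cryba4, Cryba2 and Crybb2, and TGCTGA was not in those of Cryge, Crygd, Crygf, Crygb and Crybb2, which says only that these letters are not there. Cryge, Crygf and Crygd shared an unbroken run of 23 bases around the TATA motif, cagcagacctcctgctatataga, which occurred in 3 of all 32851 promoter entries. Across levels, the TATA letters stood in 33.3% of 42 promoters of genes at 1000 TPM or more, and in 13.8% of the 29 of these that were not crystallins. They stood in 4.14% of promoters at 100 to 1000 TPM, in 1.60% at 10 to 100 TPM, in 2.12% at 1 to 10 TPM and in 13.3% of silent genes. The RefSeq start lay more than 100 bases downstream of the GENCODE 5′ end for Cryaa, Crygc, Crygn and Crygs, so their windows may not sit before the main start. A match describes letters in a window and not a bound site.

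Below the crystallins the distribution was steep. Only 13 protein-coding genes reached 10000 TPM, 12 crystallins and the mitochondrially encoded mt-Co1 (10351 ± 2047 TPM), and together they held 48.8% of TPM. A further 50 genes lay between 1000 and 10000 TPM (11.1%), 678 between 100 and 1000 (17.15%), 5773 between 10 and 100 (17.3%) and 5127 between 1 and 10 (2.41%). The highest 10 genes took 26.0% ± 1.74 of the counts and the highest 100 took 41.4% ± 2.06. Of 21478 protein-coding genes 11641 (54.2%) were expressed, 5394 (25.1%) were silent and 4443 lay between. Cytosolic ribosomal protein genes took 4.46% ± 0.660 of the counts and mitochondrially encoded genes 1.88% ± 0.365, and library c was highest for both (5.44% and 2.35%).

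Among the 25 highest nuclear protein-coding genes, 14 were crystallins and 11 were not. Eef1a1, a translation elongation factor, stood at 6913 ± 609.5 TPM. Cd24a, a small surface glycoprotein, stood at 3017 ± 512 TPM. Capn3, whose lens forms are calcium-dependent proteases, stood at 2682, 2963, 2924 and 2830.3 TPM in a to d. Tuba1a, Hsp90ab1, Eef2, Rplp1, Rplp0, Rpl41, Mip and Bfsp1 made up the rest, from Mip at 4251 down to Eef2 at 2094 TPM.

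Genes of the fiber membrane were abundant but uneven within families. Of 23 fiber membrane and junction genes 21 were expressed, 20 without libraries a and c, and none was silent. Mip (aquaporin 0), the water channel and adhesion protein of fibers, stood at 4374, 5104, 3379 and 4148 TPM in a to d. Mip alone made up nearly the whole aquaporin family, since Aqp1 had a mean of 3.23 ± 2.03 TPM, Aqp5, known from later lens, of 0.330 ± 0.124 TPM, and only Mip and Aqp1 of 12 aquaporins were expressed. The connexins showed the same concentration. The fiber gap junction gene Gja3 (570.4 ± 162 TPM), and Gje1 (975, 1194, 1375 and 1336 TPM), a connexin-like gene whose mutation affects the mouse lens, stood far above Gja1, the connexin of the lens epithelium, at 16.7 ± 1.83 TPM.

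Lim2, which encodes the fiber protein MP20, was rare at this stage. It stood at 17.1, 18.4, 6.63 and 7.603 TPM in a to d, and Mip exceeded it 256- to 546-fold within each library. The lens membrane gene Tmem114 had 0.135 TPM in a and 0 in the others. For transport, Slc2a1, the main glucose transporter gene of the tissue, stood at 572, 534, 414 and 546 TPM, against 2.04 ± 1.52 TPM for Slc2a3. Of the sodium pump beta subunits, Atp1b3 stood at 233 ± 32.0 TPM, and Atp1b1 stood at 3.06 ± 0.866 TPM, 58.7- to 101-fold below Atp1b3. N-cadherin (Cdh2, 153 ± 25.6 TPM) exceeded E-cadherin (Cdh1, 87.1 ± 20.6 TPM), the epithelial form, in all 4 libraries.

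All 14 genes of the beaded filament and membrane skeleton were expressed. Bfsp1 and Bfsp2, the 2 beaded filament proteins found in lens fibers, had 2243 ± 754 and 1953 ± 241 TPM. Bfsp1 read 2772, 2696, 1144 and 2359.6 TPM in a to d, with c lowest, and its transcript holds 58.2% GC. Bfsp2, at 57.0% GC, was lowest in d (1645 TPM). Vim, the vimentin gene, varied little, at 1001, 1021, 1036 and 1036 TPM (SD 16.6). Ezr, the ezrin gene (532 ± 90.9 TPM), and Sptan1, a spectrin gene (329 ± 25.2 TPM), followed.

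Of 15 genes linked to fiber maturation 13 were expressed. Tdrd7, a Tudor domain protein of RNA granules, stood at 936, 964, 1193 and 1014 TPM in a to d. Grifin, a galectin-related lens protein, stood at 832 ± 88.2 TPM and Caprin2, an RNA-binding protein gene, at 196 ± 8.53 TPM. Dnase2b, which encodes the nuclease that degrades DNA in mature fibers, was already present, at 24.3, 24.4, 14.6 and 21.9 TPM. Casp6 (3.90 ± 0.687 TPM) and Alox15 (1.12 ± 0.562 TPM) were low. Hspb1, a small heat shock protein gene, was higher in a (47.5 TPM) and c (23.2 TPM) than in b (4.37 TPM) and d (4.65 TPM), and Krt5, given below, was also higher in a and c.

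The transcription factors of the lens were expressed nearly as a set. Of the 27 genes on the list 26 were expressed and the remaining one, Six6, stood at 1.94 TPM in a and between 0.0478 and 0.366 TPM in the others. Foxe3, a forkhead factor of the lens epithelium, led in TPM, with 1470.1, 1374, 621 and 1073 TPM in a to d (1135 ± 382). Its transcript holds 73.1% GC and c was the lowest library. Maf, which activates crystallin genes, followed at 365, 383, 211 and 358 TPM. It was also lowest in c, and its transcript holds 47.4% GC. Then came Pitx3 at 229 ± 61.9, Prox1 at 227 ± 40.6, Hsf4 at 186 ± 47.4, Mafg at 154 ± 20.4 and Sox1 at 141 ± 32.2 TPM. Without length correction Maf (mean 1140 CPM) and Prox1 (799 CPM) stood above Foxe3 (413 CPM), so this order depends on exon length.

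Pax6, which is required for the lens to form, stood at 60.9, 53.0, 46.6 and 65.4 TPM in a to d, 13.3- to 25.9-fold below Foxe3 within each library. That ratio rests largely on the exon length used, 11694 bases for Pax6 and 867 for Foxe3. In CPM, without length correction, Pax6 stood at 292, 265, 237 and 316 and Foxe3 at 522, 510, 234 and 384 in a to d. Six3 (52.2 ± 11.1 TPM), Sox2 (18.4 ± 5.93 TPM) and Gata3 (15.99 ± 5.19 TPM) were of the same order as Pax6 in TPM or lower. Within the heat shock factors, Hsf4 was far above Hsf1 (14.04 ± 2.96 TPM) and Hsf2 (4.96 ± 0.811 TPM).

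**Figure D2:**
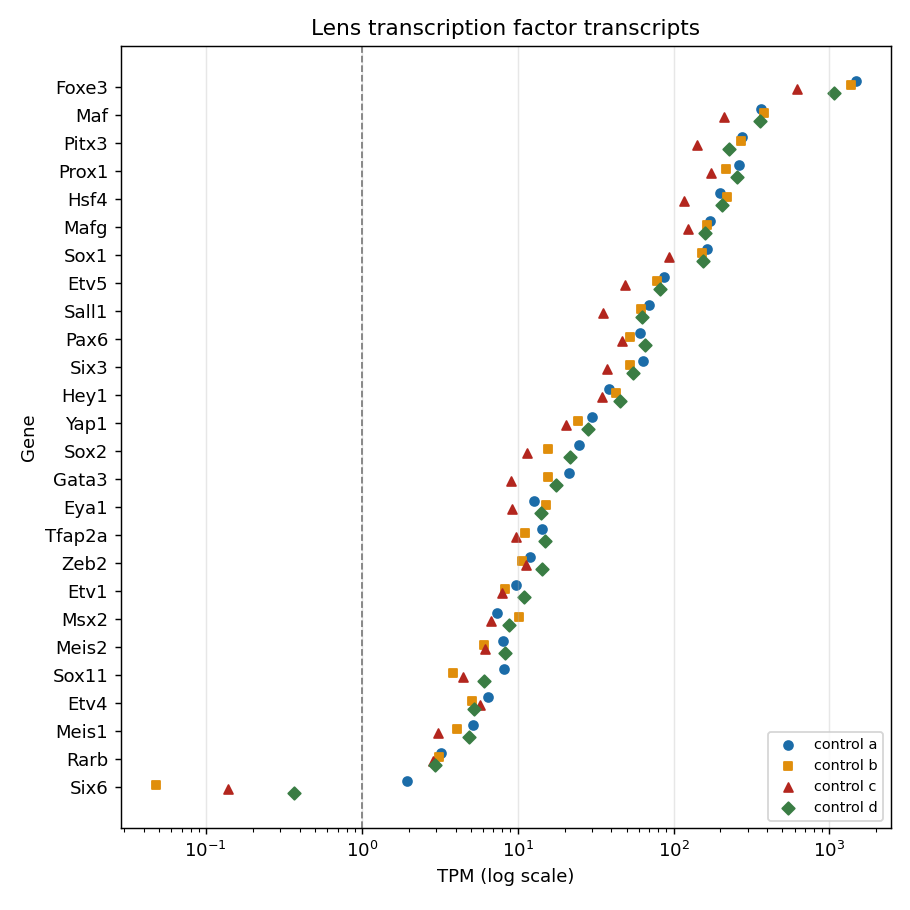
TPM of 26 of the 27 listed lens transcription factor genes (rows, ordered by mean, Six6 included) in the 4 control libraries, 1 symbol per library, on a log axis, with a dashed line at 1 TPM. Foxe3 leads at 621 to 1470.1 TPM, and Six6 passes 1 TPM in library a alone. Library c (triangles) is lowest for 21 of these 26 genes, and for 5787 of all 12850 expressed genes.

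Other factor families were reduced to 1 or a few members. Pax6 was the only expressed gene of 9 Pax genes, Gata3 of 6 Gata genes and Pou2f1 of 15 Pou genes. None of 39 Hox genes and none of 8 Lhx genes was expressed, and 15 Hox genes were silent. The summed Hox level was 7.96 and 4.10 TPM in a and c, against 0.372 and 0.360 TPM in b and d. In other families 6 of 7 Maf, 12 of 19 Sox, all 4 Tead and all 8 E2f genes were expressed. Over all protein-coding genes the expressed share was 54.2%, and that of the Sox genes was not far above it. As a check on very low levels, 1432 of 1462 olfactory and vomeronasal receptor genes were silent and 1 was expressed.

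For FGF signalling, the receptors were present and the ligands were nearly absent. Fgfr3 stood at 132, 133, 73.4 and 118 TPM in a to d, Fgfr1 at 30.8 ± 5.24 TPM and Fgfr2 at 18.6 ± 2.66 TPM. Fgfrl1, a receptor that lacks the kinase domain, stood at 130.2 ± 39.6 TPM and Fgfr4 at 0.347 ± 0.328 TPM. Of 22 ligand genes 3 were expressed and 8 were silent, and without libraries a and c 1 was expressed, Fgf11 (3.07 ± 0.843 TPM), whose product stays inside the cell. Fgf15 stood at 11.9 TPM in a and at 0.376, 0.746 and 0.748 TPM in b to d.

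The BMP family showed a like arrangement, with Bmpr1a at 49.2 ± 6.70 TPM and 11 of 13 receptors of the BMP, activin and TGF-beta families expressed (10 without a and c). Of its 19 ligands 3 were expressed, led by Gdf11 (24.3 ± 4.38 TPM) and Bmp7 (18.3 ± 5.28 TPM). Wnt ligands were more abundant. Wnt7b stood at 194, 168, 93.0 and 166 TPM in a to d, Wnt7a at 79.0 ± 25.7 TPM and Wnt5b at 50.9 ± 11.5 TPM, and Wnt7b exceeded Wnt7a 2.01 ± 0.224-fold. The secreted Wnt modulators Sfrp1 (803, 827, 665 and 821 TPM) and Dkk3 (846, 818, 531 and 724 TPM), the latter a divergent Dickkopf, stood above every Wnt ligand. The receptors Fzd1 (30.9 ± 6.97 TPM) and Fzd7 (26.8 ± 4.17 TPM) led 10 expressed genes of 12 in the Frizzled and Lrp list.

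Notch signalling was represented by 1 main ligand. Jag1 stood at 228, 209, 146 and 229 TPM in a to d. All 4 receptors were expressed, led by Notch3 (27.8 ± 2.19 TPM), and the target Hey1 stood at 40.4 ± 4.46 TPM. Of the hedgehog genes, the transducer Smo was at 37.4 ± 5.42 TPM and the ligand Shh was silent. Igf2, a fetal growth factor, stood at 571 ± 71.0 TPM and Igfbp7 at 1311 ± 63.3 TPM. Of the receptor genes, Igf2r stood at 103 ± 17.8 TPM and Igf1r at 5.11 ± 0.742 TPM. Epha2, an Eph receptor whose loss causes cataract, stood at 51.2 ± 11.8 TPM and the ephrin Efnb2 at 56.5 ± 9.97 TPM. Aldh1a1, which makes retinoic acid, stood at 612 ± 55.1 TPM.

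**Figure D3:**
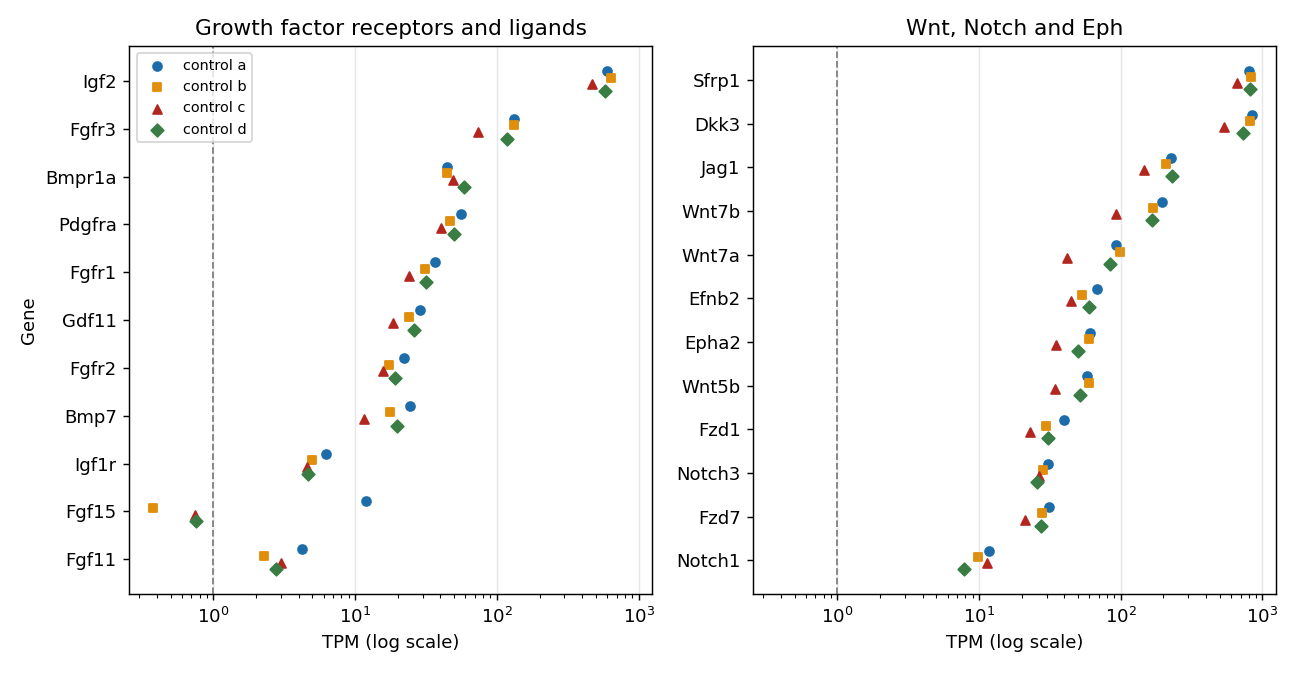
TPM of growth factor genes and receptors (left) and of Wnt, Notch and Eph genes (right), rows ordered by mean, in the 4 control libraries, 1 symbol per library, on log axes with dashed lines at 1 TPM. Sfrp1 and Dkk3 lie above the Wnt ligands, and Fgf15 passes 1 TPM in library a alone (11.9 TPM).

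The epithelium and its capsule were also visible. Of 19 epithelial genes 18 were expressed and Kcnj13 was silent. In the capsule list 16 of 18 genes were expressed. The collagen IV chains Col4a1 (876, 769, 565 and 726 TPM) and Col4a2 (554 ± 101 TPM) led, with the matrix genes Sparc (703 ± 96.5 TPM) and Nid1 (681 ± 114 TPM). Col4a5 (163 ± 20.4 TPM) and Col4a6 (91.0 ± 16.8 TPM) were expressed, and Col4a3 (0.618 ± 0.191 TPM) and Col4a4 (0.237 ± 0.0532 TPM), chains of mature basement membranes such as that of the kidney glomerulus, were under 1 TPM in all 4 libraries.

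Proliferation and cell cycle exit genes were both present. All 30 cell cycle genes were expressed (29 without a and c), with Ccnd2 at 149.9 ± 28.3 TPM, Cdk4 at 137 ± 10.5 TPM and Mki67, a marker of cycling cells, at 35.2 ± 4.29 TPM. Cdkn1c (p57), the inhibitor linked to cell cycle exit of lens fibers, stood at 2001, 1564, 1123 and 1741 TPM in a to d. It exceeded Cdkn1b (p27) 39.97 ± 3.21-fold, and the other 5 inhibitors measured were at or below 30.4 TPM on average. Among non-coding genes, H19 stood at 2625, 2411, 1862 and 2160.2 TPM and Malat1 at 1441 ± 372 TPM. Prox1os, which lies antisense to Prox1 and overlaps it in part, was listed at 193 ± 9.09 TPM. Without a stated strand setting, its reads within the overlap cannot be told apart from those of Prox1. Cct6a, which that annotation files as a processed transcript, and Gas5 completed the highest 5.

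Markers of other tissues were detected and differed between libraries. Skeletal muscle genes summed to 167, 5.54, 55.7 and 30.6 TPM in a to d, and surface ectoderm and cornea genes to 223, 26.2, 179 and 28.9 TPM. Of the 13 surface ectoderm and cornea genes 9 were expressed, 6 without libraries a and c. Krt5, a basal keratin, stood at 55.4, 3.18, 63.0 and 3.28 TPM, and the corneal keratin Krt12 was at or below 0.246 TPM. Libraries a and c were higher than b and d for both lists. Erythroid genes summed to 6768, 2665, 6061 and 1712 TPM, the highest sum among the lists of other cell types, and the globin gene Hba-a1 alone averaged 1601 ± 898 TPM (SD, n = 4). Neuronal genes summed to 86.1, 11.4, 15.9 and 11.8 TPM and retinal genes to 169, 96.4, 90.8 and 94.7 TPM.

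Most of the retinal sum was Sfrp2 (94.3 ± 16.7 TPM), a secreted Wnt modulator that is not restricted to retina. The retinal progenitor factor Atoh7 (13.9, 0.294, 0.529 and 1.14 TPM) was high in a alone, as Fgf15 was. Of the 17 retinal genes 3 were expressed and 2 were silent, the photoreceptor gene Nrl and Vsx1. Vsx1 and the pigment epithelium gene Rpe65 had 0 counts. Endothelial genes summed to 194, 227, 324 and 161 TPM, with all 13 expressed, and macrophage genes to 84.2, 69.3, 84.6 and 66.4 TPM, with 12 of 14 expressed. Pericyte genes summed to 101, 88.7, 127 and 79.6 TPM, periocular mesenchyme genes to 122, 52.9, 75.7 and 28.6 TPM, and pigment cell genes to 21.6, 16.4, 17.4 and 19.1 TPM. Of the 12 pigment cell genes 4 were expressed (3 without a and c) and 3 were silent, among them the defining pigment gene Tyr. How far tissue outside the lens contributed to genes such as Fgf15, Hspb1 and the Hox genes was not tested.

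**Figure D4:**
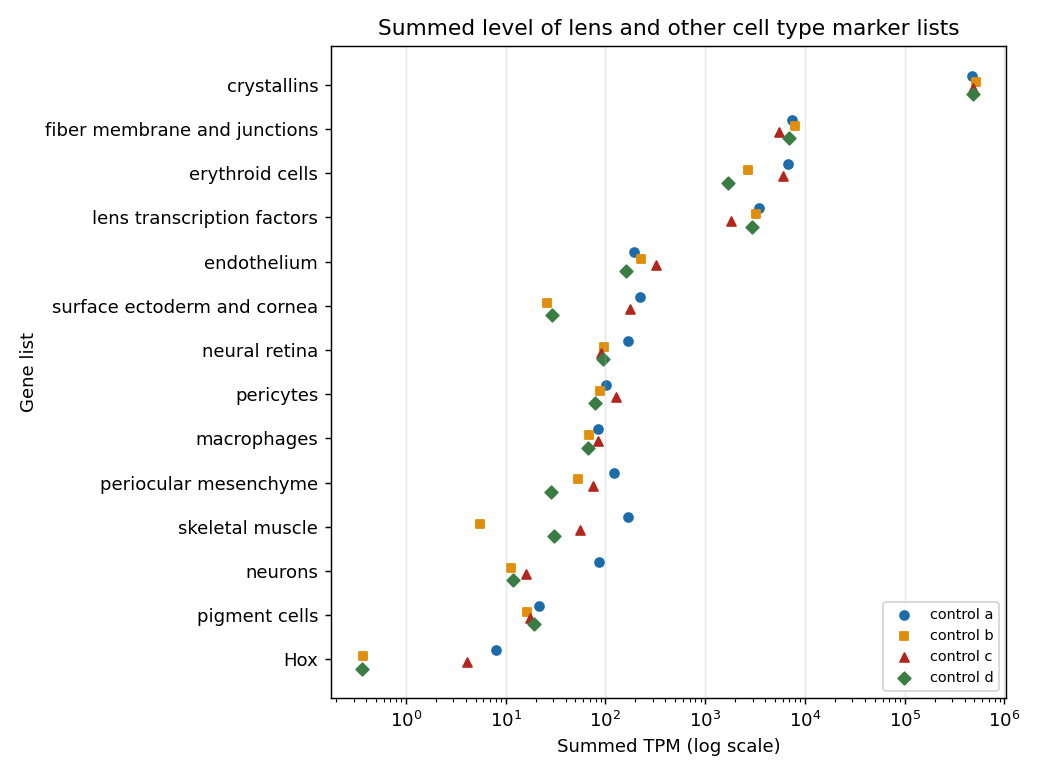
Summed TPM of each marker list (rows, ordered by mean) in the 4 control libraries, 1 symbol per library, on a log axis. Crystallins lie near 489243 TPM in all 4 libraries, and the skeletal muscle, surface ectoderm and Hox sums are higher in a and c than in b and d.

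Sex-linked transcripts also differed between libraries. Xist, expressed from the inactive X chromosome, stood at 41.6, 38.7, 127 and 55.9 TPM in a to d. The Y-linked Ddx3y stood at 14.04, 12.3, 3.81 and 14.4 TPM and Eif2s3y at 27.5, 30.1, 12.4 and 26.4 TPM. Transcripts of both kinds were present in every library, and the ratio of Xist to Ddx3y was 33.3 in c and 2.96 to 3.89 in the others.

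The 4 libraries gave nearly the same ranking of genes. Over the 12850 expressed genes, Spearman's rho across genes lay between 0.970 and 0.985 for the 6 pairs of libraries (median 0.977), where genes are not independent replicates. The highest library was under 1.5-fold above the lowest for 7770 genes (60.5%) and over 2-fold above it for 1473 genes (11.5%). The median coefficient of variation of TPM was 15.5%, and edgeR's common biological coefficient of variation was 20.4%. Every pair differed by more than counting noise (chi-square of 15.3 to 84.3 per degree of freedom), and all 4 were kept as separate libraries. Of the genes averaging 5 CPM or more and holding at least 200 bases of exon, the 10 with the highest biological coefficient of variation were Krt1, Krt4, Krt5, Krt15, Krt19, Sfn, Acta1, Actc1, Snrpf and Rpl24. Of these, Krt4 stood at 51.8, 0.404, 26.5 and 1.88 TPM and Acta1 at 61.6, 0.935, 14.8 and 11.7 TPM.

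The libraries differed in how their values went with base composition. In the 10% of genes with the most GC (median 59.7% GC), the median log2 deviation of TPM from the other libraries was 0.29 in a, 0.06 in b, -0.37 in c and -0.11 in d. In the 10% with the least GC (39.8%) it was 0.13 in c, -0.03 in a, -0.24 in b and 0.19 in d. Across 12843 genes the deviation had a Spearman's rho with GC content of 0.367 in a, 0.358 in b, -0.352 in c and -0.330 in d, as a description. Library c was the lowest of the 4 for 5787 expressed genes, and the first principal component (40.5% of the variance) separated it from the rest. The part of base composition in that separation was not tested.

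**Figure D5:**
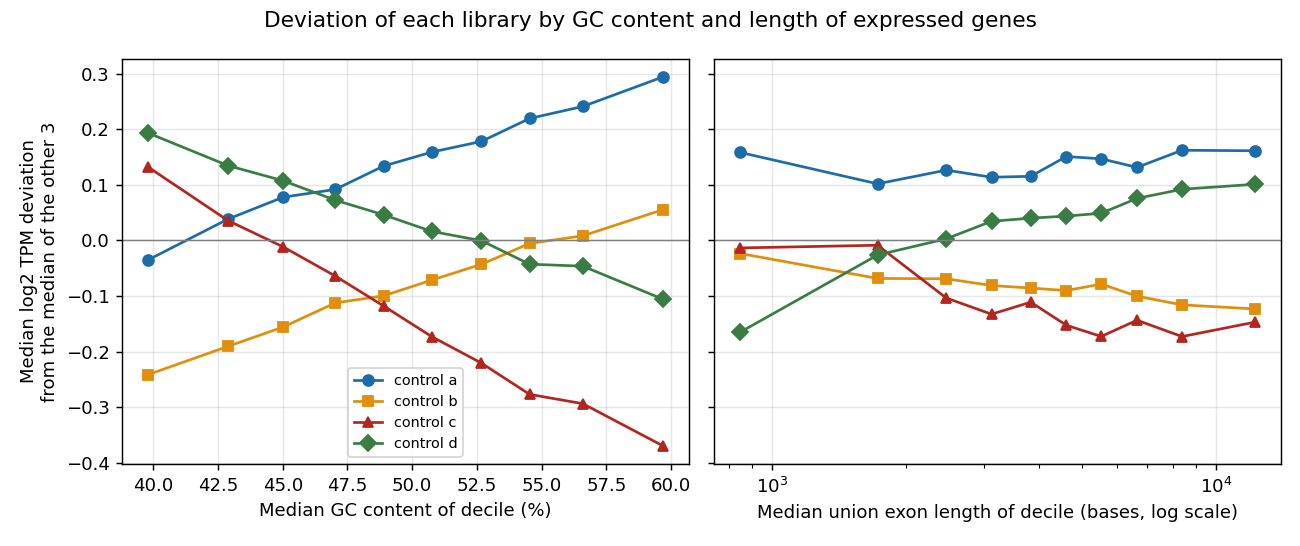
Median log2 deviation of TPM in each library from the median of the other 3, for expressed genes in 10 equal bins of GC content (left, percent) and of exon length (right, bases on a log axis), 1 line per library. The lines of a and b rise with GC content and those of c and d fall, with c lowest (-0.37) in the bin with the most GC.

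Whether the libraries titled Control (a, b) and Ctrl (c, d) differed gene by gene was tested with edgeR's quasi-likelihood test. Of 16366 genes tested 7 (0.0428%) had an adjusted p under 0.05, 5 lower in c and d (0.0306%) and 2 higher (0.0122%), while 1641 genes (10.03%) had an unadjusted p under 0.05. These p-values measure only the spread between the libraries, which may be technical. Snrpf, a core spliceosome gene, stood at 82.2 and 75.0 TPM in a and b and at 1.001 and 0.902 TPM in c and d (log2 change -6.29, adjusted p = 3.02e-05). The ribosomal protein gene Rpl24 had 241, 258, 30 and 23 counts (log2 change -4.17, adjusted p = 0.00820).

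The mitochondrial tRNA gene mt-Tl2 had 206, 182, 0 and 0 counts and mt-Tc 102, 78, 1 and 4, and the predicted genes Gm10800 (0, 1, 275 and 272 counts) and Gm24187 (24, 18, 431 and 368 counts) were higher in c and d. Snrpf and Rpl24 can share reads with near-identical copies elsewhere in the genome, so their values are uncertain. Among the lists, the cytosolic ribosomal proteins held 2 called genes of 83 tested. The mitochondrially encoded genes held 2, mt-Tl2 and mt-Tc, which are under 200 bases and so have no TPM here. Of the mitochondrially encoded genes of at least 200 bases, 15 were tested and none was called. The 3 remaining called genes belonged to none of the lists. On simulated counts with these means and library sizes and the same spread for all genes, 100 changes of each size were planted in genes above 1 CPM. The same test, over 16049 genes, recovered 26% of the 2-fold and 97% of the 4-fold changes. Real genes differ in spread, so recovery in the data can differ. The count rested on the libraries compared, since leaving out d gave 2459 genes and leaving out c gave 285.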

How the data were processed

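The authors deposited 1 table of whole-number read counts per Ensembl gene ID. The tools named, per the submitters' processing notes, are CASAVA, HISAT2 and featureCounts, with build mm10 and no versions. Not given in the sources used here: annotation release and strand setting. The 4 columns of the CKO libraries were not used. Of 43432 IDs, 42548 were matched to GENCODE M21 for symbols, biotypes and union exon lengths, and the 884 others held at most 0.0905% of the counts of a library. TPM were computed from the counts for 36599 genes of at least 200 bases, since a very short gene can take a large part of TPM.

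Library totals lay between 24374038 and 56098211 counts, so counting error is small for all but rare transcripts, and intervals and limits for 0 counts cover counting error only. The libraries were grouped by the genotype label. Those titled Control and Ctrl were compared by edgeR 4.0.16 in R 4.3.3 (filterByExpr with a minimum count of 10, TMM, robust quasi-likelihood F-test, Benjamini-Hochberg adjustment, threshold 0.05), with DESeq2 1.42.0 as an alternative. The code was tested on simulated data, where 8 of 131 calls were false. Figures and shares were made with Python 3.11.15, pandas 2.3.3, scipy 1.17.1 and matplotlib 3.10.9.

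The 73 gene lists and families, the rule for named genes and the questions were chosen with earlier results of these data known. The rule took the 25 highest nuclear protein-coding genes, all 16 crystallins, the 4 highest members of each list, the silent members of the lens lists, the 5 highest non-coding genes with an established symbol, the genes called between the libraries and the 10 with the highest spread. Lim2, Tmem114, Aqp5, Dnase2b, Casp6, Alox15, Hspb1, Six6, Col4a3, Col4a4, Mki67, Sptan1, Fgfr4, Igf1r, Krt12, Nrl, Vsx1, Rpe65, Tyr, Shh, Mettl3 and the 4 called genes outside the 5 CPM or symbol limits were named after their values were seen. Promoter sequences are from RefSeq. Genes with close copies, such as the gamma crystallins, ribosomal proteins and the mitochondrial genes with nuclear copies, have uncertain separate values. A few genes under this rule are left out of the text and are not reported here.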

Additional observations from a re-analysis of the deposited data

Results flagged for a closer look

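Among 367 named genes, class shares and list sums, 32 (8.72%) had 1 library whose gap to the others was large against the range of the 4 libraries. Chance flags about 1 in 20 groups. Library a was the distant one 17 times, c 13 times, and b and d once each.

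In library a the distant values were high and belonged mostly to retinal, neuronal and patterning genes. They were Sfrp2 at 119 TPM, Tubb3 at 35.8, Hes6 at 35.0, Gap43 at 18.4, Atoh7 at 13.9, Notch2 at 12.4, Fgf15 at 11.9 and Ina at 10.01 TPM. Lower ones were Lhx2 at 3.03, Pou4f2 at 2.79, Hoxa5 at 1.87, Dll1 at 1.74 and Hoxa2 at 0.803 TPM. The sums over lists were 169 TPM for neural retina, 86.1 for neurons, 24.6 for Fgf ligands and 3.70 for Lhx genes.

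In library c the distant values were high for Cryba1 (80236 TPM), Rplp1 (4308 TPM) and Lhx6 (0.211 TPM), for the cytosolic ribosomal protein share (5.44% of counts) and for the long intergenic non-coding share (1.36%). They were low for Hsp90ab1 (1706 TPM), Sfrp1 (665 TPM), Maf (211 TPM), Fgfrl1 (71.1 TPM) and Ptch1 (9.18 TPM), for the protein-coding share (97.4%), and for the summed Maf (395 TPM) and Hsf (131 TPM) families. The other distant values were Hsf2 in d (6.17 TPM) and Gata1 in b (0.943 TPM).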

How the results depend on the processing

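The crystallin, ribosomal protein and mitochondrial shares and the numbers of expressed and silent genes and of genes holding 50% of the counts stayed within the limits for an unmoved result under every alternative run. For the numbers of genes the limit was 1.5-fold. For the shares it was 1 SD over the libraries, which the runs with libraries left out could not pass. Those runs therefore say nothing on how firm the shares are. The median Spearman's rho was 0.958 over all genes with a count. The number of genes differing between libraries titled Control and Ctrl moved from 7 to 222 with no filter on low counts and to 51 with DESeq2, and was 12 to 2459 with 1 library left out (12 without a or b, 285 without c, 2459 without d; the lone library is then assumed to vary like the others). The 7 genes were among the calls in all of these but the one without b, which held 5 of them. RLE scaling gave 7 genes. With the longest transcript as the length, 111 of 285 named levels moved by more than 1 SD, and 18 of the 285 moved over 1.5-fold. Leaving out a, or a and c together, an alternative chosen after seeing the data like the inclusion of genes under 200 bases, moved 32 and 44 levels over 1.5-fold. Limits are the unknown number of animals per library, unknown strand use, and the higher muscle, keratinocyte and erythroid sums in a and c, whose source was not tested. No paired analysis was possible because no groups with shared replicate letters were compared.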

Other observations

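In several other families the members stood at unequal levels. Over all protein-coding genes 54.2% were expressed, a share near that of the integrins. Among 26 integrin genes 14 were expressed, led by Itgb1, the common beta chain of matrix receptors (234, 236, 263 and 254 TPM in a to d), and its laminin-binding partner chain Itga6 (82.7, 74.9, 60.0 and 81.2 TPM) came after Itgb5 (106 ± 25.4 TPM, SD, n = 4). Of 26 TRP channel genes 10 were expressed (8 without a and c), with Trpm3 at 34.8 ± 3.89 and Trpc6 at 28.4 ± 2.86 TPM, and 8 were silent. Of 23 claudins 3 were expressed, with Cldn12 at 32.8 ± 3.60 TPM and Cldn5, also an endothelial marker, at 31.9 ± 6.25 TPM. Id2, Id3 and Id1, inhibitors of basic helix-loop-helix factors, stood at 108 ± 12.6, 80.6 ± 5.48 and 54.58 ± 5.0004 TPM, and Id4 at 5.21, 3.11, 1.66 and 2.63 TPM in a to d. E2f5 was the highest of the 8 E2f genes, at 58.5, 55.0, 60.1 and 58.9 TPM.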
